A study of Mus musculus with 8 samples.

Results

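Integrin subunits and laminin chains were followed in mouse muscle stem cells after deletion of Chd4, the ATPase of the nucleosome remodelling and deacetylase (NuRD) complex. All genes of the series' expression table whose symbol has the form of an integrin alpha or beta subunit (Itga or Itgb plus a short suffix) or of a laminin alpha, beta or gamma chain (Lama, Lamb or Lamc plus a number) were taken. This gave 36 of 20976 genes, namely 17 integrin alpha subunits, 8 integrin beta subunits and 11 laminin chains. The cells were sorted from muscle of mice with loxP sites on both Chd4 alleles and grown briefly in serum with basic fibroblast growth factor. They then received an adenovirus with Cre recombinase, which removes an internal stretch of Chd4 exons (Cre, n = 4 libraries), or an adenovirus with GFP (GFP, n = 4), and RNA was sequenced from both. The floxed Chd4 alleles and an adenovirus were therefore common to all 8 libraries, and no library had Cre with an intact, unfloxed Chd4, so effects of Cre itself and of Chd4 loss cannot be told apart. Per the series' description each condition came from 4 mice. The age, sex and strain of the mice, the time after infection and the surface markers used for sorting are not known from the labels.

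Integrins are transmembrane receptors made of 1 alpha and 1 beta subunit. Outside the cell they bind matrix proteins or counter-receptors, and inside they are tied to actin through talin, kindlin and other adaptor proteins. Laminins are trimers of an alpha, a beta and a gamma chain that polymerise into the sheet at the core of the basement membrane. Satellite cells, the stem cells of skeletal muscle, lie between the muscle fibre and its basement membrane and touch laminin with Itga7 paired with Itgb1. The same laminin also holds the fibre through dystroglycan, and loss of Lama2 or Itga7 causes muscular dystrophy.

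The deposited values are read counts that were scaled between libraries and rounded, called scaled reads here, and they sum to 27897860 to 28876348 per library. From the whole numbers that never occur among low values, the totals before scaling were estimated at 23.3 to 38.0 M reads. Chd4 itself had 3686, 5480, 5010 and 5134 scaled reads with Cre against 17886, 15904, 16634 and 20121 with GFP, a log2 difference of -1.88 ± 0.14 (SE, n = 4 per group; limma adjusted p = 0.00328). Markers of myoblasts were present in all libraries, and their sum ran from 79381 to 96415 in Cre and from 80973 to 84944 in GFP. In the model with pairs, explained below, in which 22.2% of all tested genes were called higher and 21.7% lower, all 10 genes of a muscle differentiation list were higher with Cre and all 10 genes of a cell cycle list were lower. Their summed scaled reads were 103155 to 372544 (Cre) against 77942 to 313097 (GFP), and 14505 to 39419 against 30902 to 65747. Of 6 tested myoblast markers, 2 were higher and 3 lower in the same model, so their sum hides changes in opposite directions. The summed markers of other cells were 655 to 911 against 178 to 293 for fibroblasts, 56426 to 88071 against 25076 to 45857 for mural cells, 278 to 408 against 141 to 184 for endothelium, 201 to 406 against 100 to 264 for glia and 35 to 40 against 20 to 39 for platelets. Rgs5 alone carried nearly all of the mural difference (mean 36372 against 8646), and Col1a1 and Ly6a that of fibroblasts, whose other markers Pdgfra (122 against 119) and Dcn were level. The part of these shifts in the results below was not tested.

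Differences were tested with limma on log2(scaled reads + 1), so each fold change is on that scale and understates the change of low genes. A gene was tested if it reached 1 scaled read per 1000000 in at least 4 libraries, which 12910 genes did, 24 of the 36 integrin and laminin genes among them. A Benjamini-Hochberg adjusted p under 0.05 counted as a call. The first model compares the 4 Cre with the 4 GFP libraries. The second, called paired here, adds the library number as a block, because libraries with the same number deviated together. In bulk RNA of this kind, fewer cells of a type and less RNA per cell cannot be told apart.

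Without pairs, 0 of the 24 tested integrin and laminin genes were called higher and 0 lower, where 0.837% and 0.248% of all tested genes were called. At an unadjusted p under 0.05 there was 1 member higher, Itga4, and 1 lower, Itgav, and limma's voom variant also called 0 (background 0.837% and 0.24%). With pairs, 9 of the 24 rose and 4 fell, where 22.2% of all tested genes rose and 21.7% fell. No test was made of the members' shares against the background. The median log2 difference of the 24 was 0.02 against -0.00 for all tested genes, and the median size without its sign was 0.20 against 0.17. Every statement below that a member rose or fell refers to the paired test, and the adjusted p without pairs is given beside it.

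**Figure D1:**
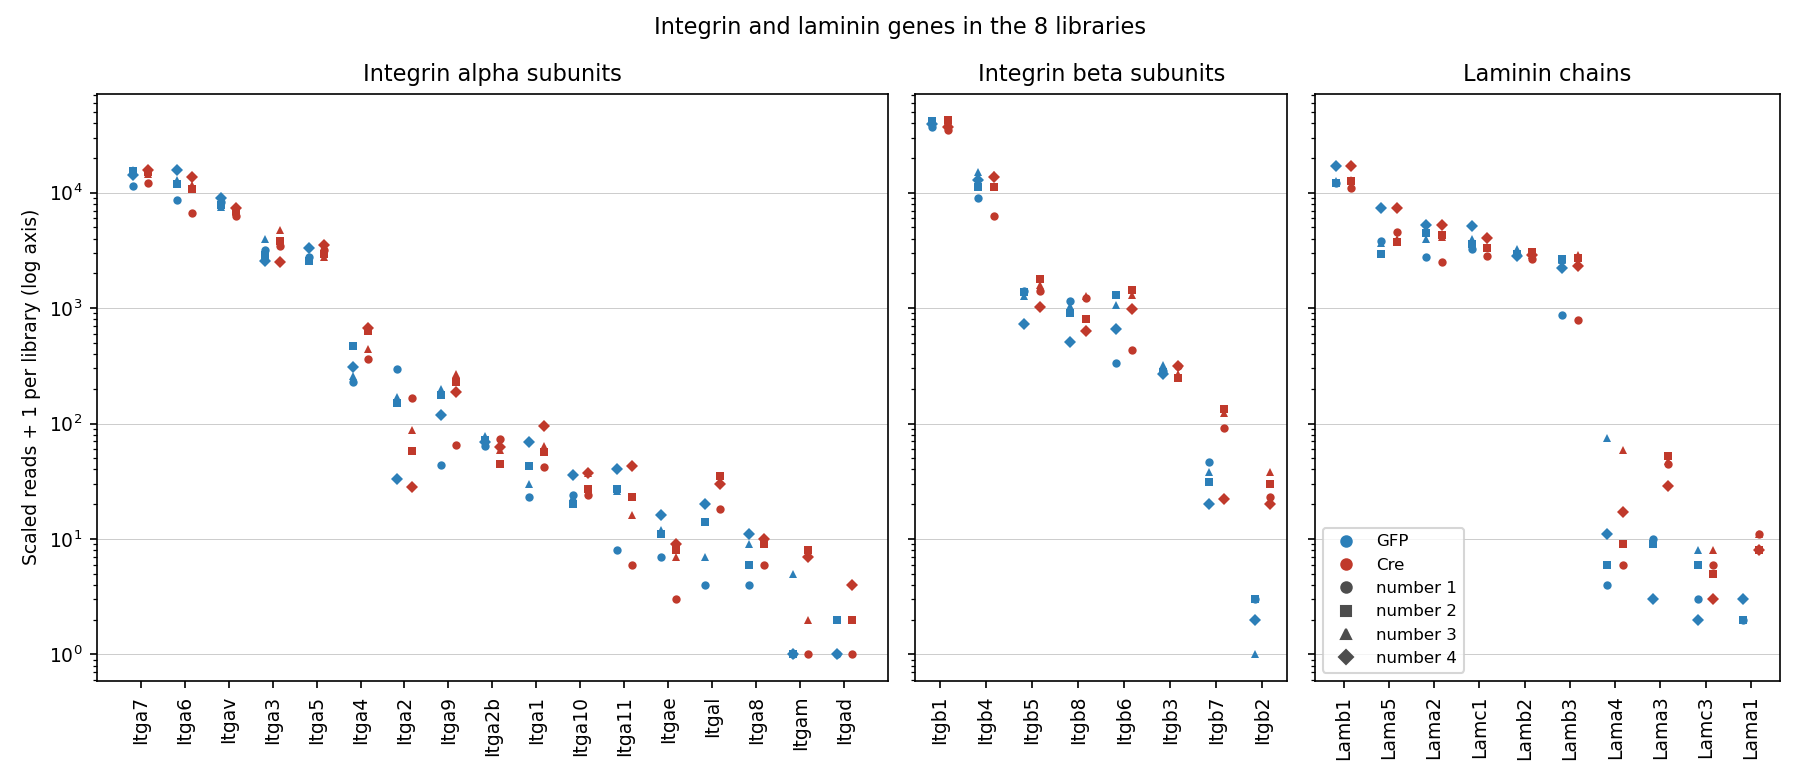
Scaled reads + 1 (log axis) of 35 integrin and laminin genes in each of the 8 libraries, with GFP in blue, Cre in red and a marker shape for each library number. Itgb1, Itga7, Lamb1, Itgb4 and Itga6 show similar heights in both groups, whereas Itgb2, Lama1 and Lama3 lie low in GFP and higher in Cre. Lama1 stays among the low genes in Cre too (7 to 10 scaled reads). Reads are not divided by gene length, so heights compare libraries and not genes.

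The laminin receptors came first by level. Itgb1, the beta partner of most matrix-binding alpha subunits, was the member with the highest level per exon length, at 346 ± 23.1 scaled reads per kilobase per 1000000 reads in GFP and 335 ± 31.0 in Cre (SD, n = 4). In the order of library numbers 1 to 4, which is kept below, Cre had 35089, 42472, 42092 and 37155 scaled reads and GFP had 36841, 42211, 41195 and 39026. The groups overlapped, and the log2 difference was -0.03 (limma adjusted p = 0.932; 0.691 with pairs, 95% interval -0.13 to 0.08). Itga7, the muscle laminin receptor subunit, stood at 12184, 15225, 14432 and 15638 in Cre and at 11475, 15408, 15741 and 14188 in GFP. These groups also overlapped, with a log2 difference of 0.02 (adjusted p = 0.960; 0.764 with pairs, 95% interval -0.09 to 0.13).

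Itga6, a second laminin-binding alpha subunit that joins Itgb1 or Itgb4, fell. It had 6617, 10828, 11626 and 13586 scaled reads in Cre and 8619, 11929, 12821 and 15871 in GFP. Each Cre library lay below the GFP library of its number, although the groups overlapped as wholes. The log2 difference was -0.22 (adjusted p = 0.720; paired SE 0.05, paired adjusted p = 0.00441). Itgb4, whose only known alpha partner is Itga6 and which builds hemidesmosomes in epithelia, had 6282 to 14351 scaled reads in Cre and 8953 to 15184 in GFP and was not called (log2 difference -0.13; paired adjusted p = 0.228). Itga3, the laminin receptor subunit with a preference for laminins that hold Lama3 or Lama5, had 3472, 3787, 4776 and 2510 in Cre and 3178, 2858, 3943 and 2541 in GFP. It was higher in 3 of 4 pairs and slightly lower in pair 4, and it rose by 0.20 on the log2 scale (adjusted p = 0.694; paired SE 0.06, paired adjusted p = 0.0268). That call was lost when pair 2 or pair 3 was left out (paired adjusted p up to 0.151).

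Among subunits that bind fibronectin, vitronectin and other ligands with an arginine-glycine-aspartate motif, Itgav fell, while 2 of its beta partners, Itgb5 and Itgb6, rose. Itgav is the common alpha subunit of Itgb3, Itgb5, Itgb6 and Itgb8. It had 6244, 6874, 6764 and 7348 scaled reads in Cre and 8262, 7860, 7506 and 8965 in GFP, or 6808 ± 453 against 8148 ± 626 (SD, n = 4). All Cre values lay below all GFP values, as they did for 6.17% of all tested genes. No tested member had all Cre libraries above all GFP libraries (4.41% of genes). Its log2 difference came to -0.26 (adjusted p = 0.178; paired SE 0.05, paired adjusted p = 0.00171).

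Itgb5, a vitronectin receptor subunit, rose. Its scaled reads were 1399, 1777, 1592 and 1013 in Cre and 1393, 1372, 1272 and 722 in GFP, with near equality in pair 1 and a higher Cre value in the other pairs. This was a log2 difference of 0.30 (adjusted p = 0.605; paired SE 0.07, paired adjusted p = 0.00745). Itgb6, which with Itgav activates latent transforming growth factor beta, had 436, 1423, 1289 and 972 in Cre and 333, 1286, 1053 and 661 in GFP. Cre was the higher in each pair, while library number 1 was far below the others in both groups, and the log2 difference was 0.35 (adjusted p = 0.791; paired SE 0.07, paired adjusted p = 0.00271). The unpaired difference was -0.04 without GFP library 1. Itgb8, another activator of latent transforming growth factor beta, was not called (0.13; paired adjusted p = 0.215). Itgb3 ran from 245 to 314 in Cre and from 266 to 323 in GFP, and Itga2b, its platelet partner, from 44 to 73 and from 63 to 77, and neither was called (paired adjusted p = 0.869 and 0.271). Itga5, the alpha subunit of the main fibronectin receptor, had 3194, 2931, 2783 and 3528 in Cre and 2786, 2561, 2588 and 3297 in GFP. It was higher in each pair by a small amount and rose by 0.15 (adjusted p = 0.542; paired SE 0.04, paired adjusted p = 0.0165), a call lost without pair 1 or pair 2 (paired adjusted p up to 0.0856).

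**Figure D2:**
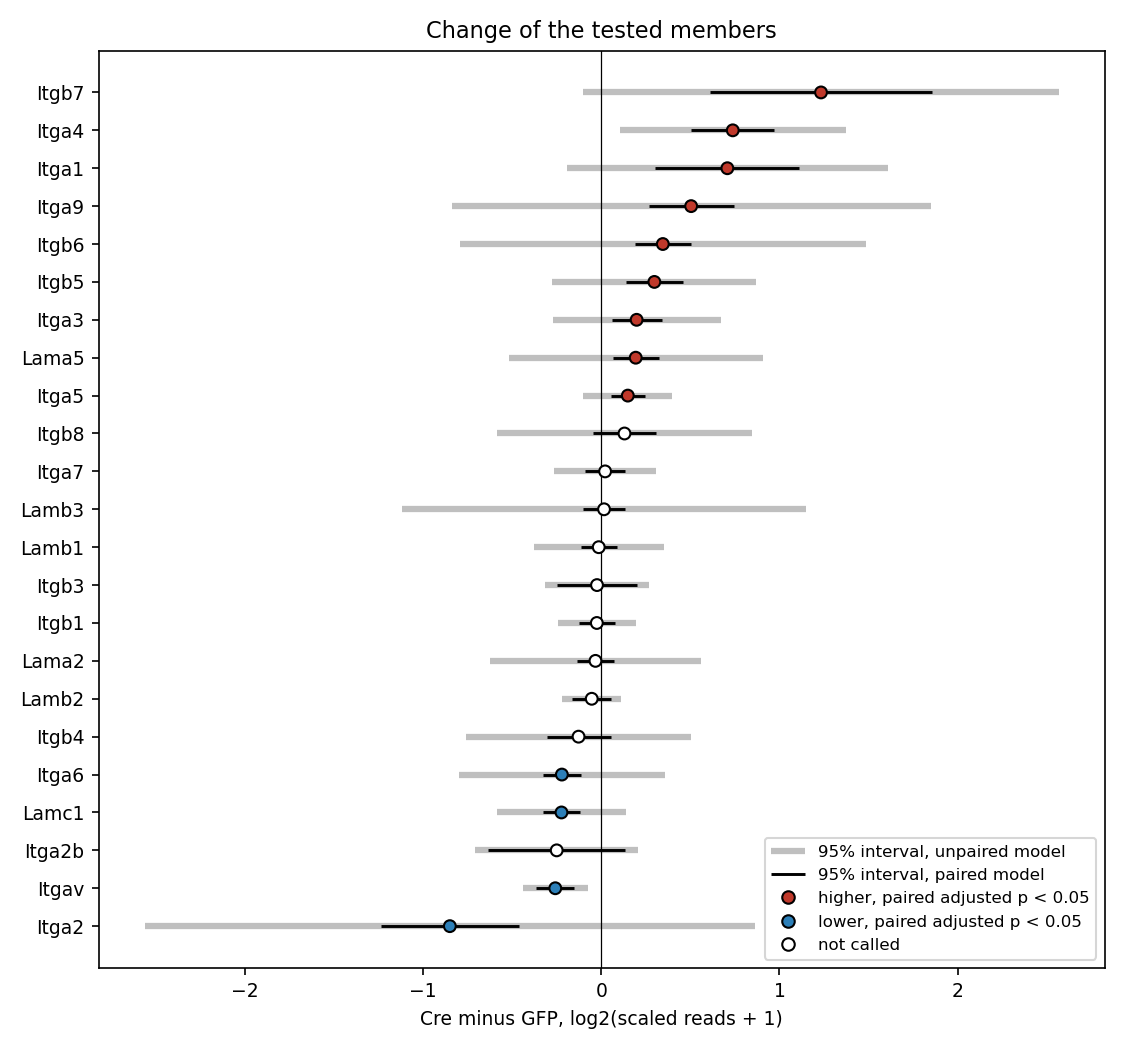
Log2 difference, Cre minus GFP, of 23 tested integrin and laminin genes, with 95% intervals from the unpaired model (grey) and the paired model (black). Filled points mark the 9 members that rose and the 4 that fell with pairs. Nearly all grey intervals cross 0, and those of Itga4 and Itgav do not.

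The largest increases among the tested members were in Itgb7 and Itga4, which form a receptor for Vcam1, Madcam1 and fibronectin that is best known from lymphocytes. Itga4 also pairs with Itgb1. Itga4 lies at chr2:79255500-79333123 on the plus strand (GRCm38, as deposited). It had 360, 628, 441 and 667 scaled reads in Cre and 229, 473, 258 and 306 in GFP, or 524 ± 147 against 317 ± 109 (SD, n = 4). Cre was the higher in all 4 pairs, with overlap between the groups through the value of GFP library 2. Itga4 rose by 0.74 on the log2 scale (adjusted p = 0.239; paired SE 0.11, paired adjusted p = 0.000325). Itgb7, at chr15:102215995-102231935 on the minus strand, had 91, 132, 122 and 21 in Cre and 45, 30, 37 and 19 in GFP. Pairs 1 to 3 were clearly apart and pair 4 was level, and the log2 difference was 1.23 (adjusted p = 0.336; paired SE 0.28, paired adjusted p = 0.00513). Itga9, which with Itgb1 binds tenascin C and Vcam1, had 64, 229, 267 and 185 in Cre and 43, 174, 200 and 118 in GFP. It was higher with Cre in each pair and rose by 0.50 (adjusted p = 0.728; paired SE 0.11, paired adjusted p = 0.00356).

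The 250 bases before the annotated start of Itga4, Itgb5 and Itgav are shown as examples of called members whose windows lie outside annotated exons. Windows of the called members Itga1, Itga2, Itga5 and Lama5, and 1 of Itga3, also lie outside exons and are not printed. The start is that of RefSeq, which for Itga4 lies upstream of the start in the deposited table. The sequences are from the RefSeq promoter table on GRCm38.p6, which held entries for 22 of the 36 members. Each is written 5′ to 3′ in the gene's direction, with matches to the searched motifs in capitals.
Itga4, chr2:79255176-79255425, plus strand: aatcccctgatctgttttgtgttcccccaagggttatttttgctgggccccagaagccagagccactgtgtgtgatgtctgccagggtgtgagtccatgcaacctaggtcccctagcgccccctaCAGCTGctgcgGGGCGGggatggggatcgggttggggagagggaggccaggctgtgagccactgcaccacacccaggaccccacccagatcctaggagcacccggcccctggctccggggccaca
Itgb5, chr16:33829415-33829664, plus strand: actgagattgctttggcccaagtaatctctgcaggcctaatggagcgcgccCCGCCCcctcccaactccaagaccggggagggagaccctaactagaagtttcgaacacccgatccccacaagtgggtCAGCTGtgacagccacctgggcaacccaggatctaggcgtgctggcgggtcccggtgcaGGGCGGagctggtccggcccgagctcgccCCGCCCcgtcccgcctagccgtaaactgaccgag
Itgav, chr2:83724147-83724396, plus strand: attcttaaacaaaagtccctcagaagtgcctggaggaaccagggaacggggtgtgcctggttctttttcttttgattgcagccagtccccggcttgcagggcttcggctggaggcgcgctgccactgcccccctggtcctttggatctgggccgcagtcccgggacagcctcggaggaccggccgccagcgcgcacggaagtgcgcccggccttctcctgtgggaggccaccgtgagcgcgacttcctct
The motifs searched on both strands were the GC box GGGCGG, the E-box CAGCTG that myogenic factors bind, the CCAAT box, the TATA box TATAAA and the AP-1 site TGACTCA. The Itga4 window held 1 GC box and 1 CAGCTG, and the Itgb5 window held 3 GC boxes and 1 CAGCTG. The Itgav window held none of the 5. In the windows outside exons that are not printed, CAGCTG occurred 1 time for Itga1, which rose. It occurred 0 times for Itga3, Itga5 and Lama5, which also rose, and 0 times for Itga2, which fell. Among windows that overlap annotated exons, CAGCTG occurred 1 time for Itga9 and 0 times for Itgb6 and Itgb7, which all rose. The called members Itga6 and Lamc1, which fell, had no entry. Whether this motif goes with the direction of change was not tested. Among 32851 windows of this length, 32.7% held a GC box, 13.0% CAGCTG, 33.8% CCAAT, 12.4% TATAAA and 4.46% the AP-1 site. The Itga4 window had 6 CpG dinucleotides, the median over all windows, and the Itgb5 and Itgav windows had 18 each, above the upper quartile of 16. These matches describe the letters only, since no binding or chromatin was measured.

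Of the collagen receptors, Itga1 and Itga2 moved in opposite directions. Both pair with Itgb1 alone. Itga1 had 41, 56, 63 and 94 scaled reads in Cre and 22, 42, 29 and 68 in GFP, so Cre was the higher in each pair. The log2 difference was 0.71 (adjusted p = 0.413; paired SE 0.18, paired adjusted p = 0.00995), and the call was lost without pair 3 (paired adjusted p = 0.0522). Itga2 had 164, 57, 87 and 27 in Cre and 297, 149, 168 and 32 in GFP, so Cre was the lower in each pair, while libraries 1 and 4 were far apart within both groups. Its log2 difference came to -0.85 (adjusted p = 0.625; paired SE 0.17, paired adjusted p = 0.00283). Itga10 and Itga11, the other 2 collagen-binding subunits, did not reach the minimum level. They had 23 to 36 and 5 to 42 in Cre and 19 to 35 and 7 to 39 in GFP.

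Among the members, the integrins of leukocytes other than Itga4 and Itgb7 were all under the minimum level for testing. They were tested only in a fit without that minimum, in which all 36 members entered, 3 were called higher and 0 lower (background 0.582% and 0.105%), and with pairs 13 rose and 4 fell (background 14.9% and 12.1%). Itgb2, the beta subunit shared by the leukocyte integrins, lies at chr10:77530252-77565686 on the plus strand. It had 22, 29, 37 and 19 scaled reads in Cre and 2, 2, 0 and 1 in GFP. The groups were far apart, and the sums of 107 and 5 gave a ratio of 21.4 (95% interval 8.89 to 67.2 for counting error only). The log2 difference was 3.71 ± 0.44 (SE; adjusted p = 0.0125, and 0.000297 with pairs). Leaving out Cre library 2 or Cre library 3 ended the unpaired call (adjusted p up to 0.0635), and the paired call held without any 1 pair.

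Itgal, an alpha partner of Itgb2, had 17, 34, 30 and 29 in Cre and 3, 13, 6 and 19 in GFP. Cre was the higher in each pair, with overlap between Cre library 1 and GFP library 4, and the ratio of sums was 2.68 (1.86 to 3.94). The log2 difference was 1.56 ± 0.52 (adjusted p = 0.237; 0.00671 with pairs, lost without pair 1 or pair 3, where it reached 0.0772). The other Itgb2 partners among the members, which do not include Itgax, were close to 0. Itgam had 0, 7, 1 and 6 against 0, 0, 4 and 0, and Itgad had at most 3 scaled reads. Itgae, which pairs with Itgb7, had 2 to 8 in Cre and 6 to 15 in GFP and was not called (paired adjusted p = 0.0926). Of 8 blood cell markers, 3 were analysed here, Laptm5, Cd68 and Csf1r. Their summed scaled reads were 1595 to 2843 in Cre and 446 to 1058 in GFP, most of it from Laptm5, and the part of such cells in the Itgb2, Itgal and Itgb7 values was not tested. Itga8, a nephronectin receptor subunit, stood at 5 to 9 in Cre and 3 to 10 in GFP.

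**Figure D3:**
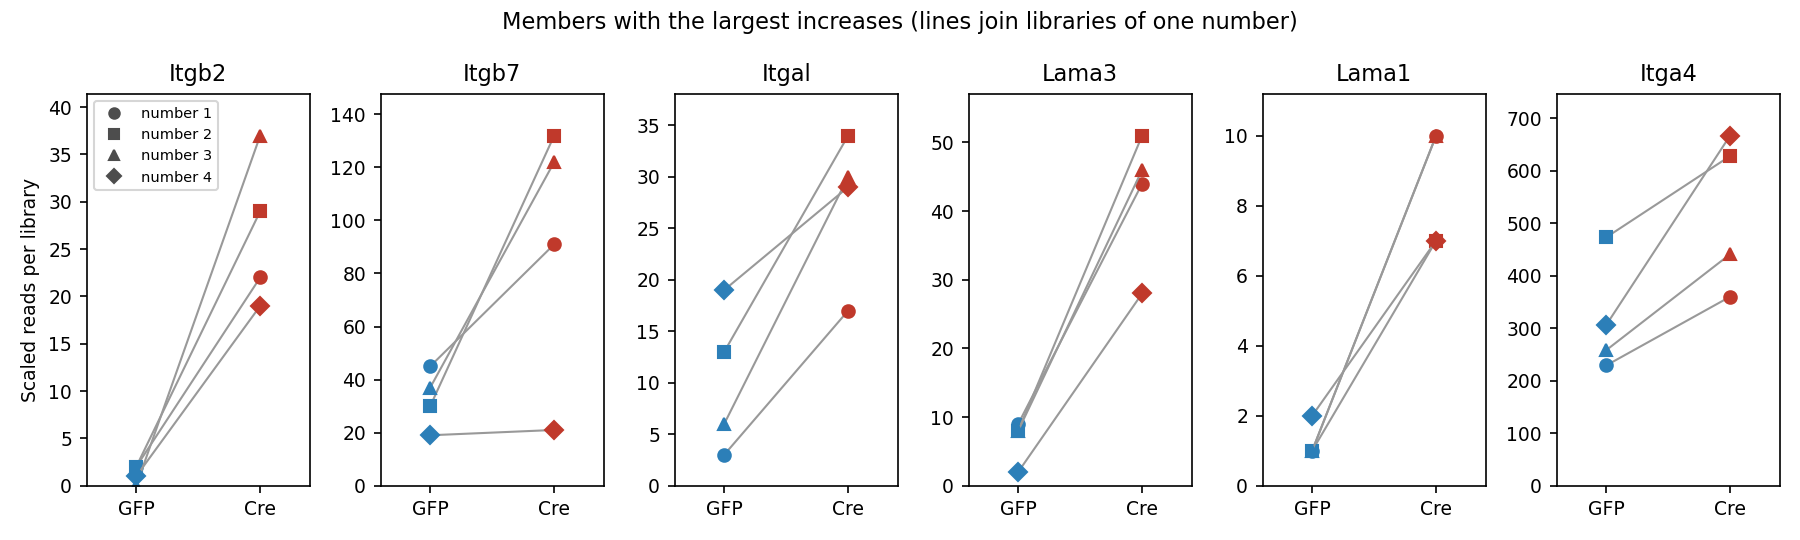
Scaled reads per library (linear axes, each with its own range) of 6 members with large increases, chosen after their values were seen, with lines that join libraries of 1 number. Every line rises from GFP to Cre, and that of pair 4 is nearly flat for Itgb7 (19 to 21). Itgb2, Lama3 and Lama1 show no overlap between the groups.

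Of the laminin alpha chains, Lama5 and Lama2 were read at far higher levels than Lama1, Lama3 and Lama4, and the changes did not follow this order. Lama5, an alpha chain found in most developing basement membranes, had 4608, 3752, 4000 and 7341 scaled reads in Cre and 3794, 2916, 3660 and 7341 in GFP. It was higher with Cre in pairs 1 to 3 and equal in pair 4. It rose by 0.19 on the log2 scale (adjusted p = 0.819; paired SE 0.06, paired adjusted p = 0.0205), a call lost without pair 1 or pair 2 (paired adjusted p up to 0.121). The unpaired difference was -0.02 without Cre library 4. Lama2, the alpha chain of the adult muscle fibre's laminin, had 2512, 4337, 4129 and 5241 in Cre and 2786, 4490, 3943 and 5238 in GFP. Its groups overlapped almost completely, with a log2 difference of -0.03 (adjusted p = 0.971; 0.594 with pairs, 95% interval -0.13 to 0.07).

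Lama3 and Lama1 were at much lower levels and below the minimum for testing. Lama3, the alpha chain of the epithelial laminin that also holds Lamb3, had 44, 51, 46 and 28 in Cre and 9, 8, 8 and 2 in GFP. All Cre libraries were above all GFP libraries, and the ratio of the sums 169 and 27 was 6.26 (4.15 to 9.78). Without the minimum the log2 difference was 2.59 ± 0.44 (adjusted p = 0.0413; 0.000195 with pairs). Lama1, an alpha chain of early embryonic basement membranes, had 10, 7, 10 and 7 in Cre and 1, 1, 1 and 2 in GFP, again with no overlap. The ratio of the sums 34 and 5 was 6.80 (2.65 to 22.3), and the log2 difference was 2.08 ± 0.33 (adjusted p = 0.0319; 0.00356 with pairs). The unpaired call on Lama3 was lost on leaving out any library but GFP library 4 (adjusted p up to 0.143), and that on Lama1 on leaving out any library (up to 0.111). Both paired calls held without any 1 pair. Without the minimum, 3.99% of all genes had every Cre library above every GFP library, as Itgb2, Lama1 and Lama3 did among the 36, and 3.99% had every one below, as Itgav did.

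Beside Lama3, the sum of 6 epithelial markers was 359 to 1406 in Cre and 108 to 714 in GFP, nearly all of it Krt18, while Epcam had 6, 8, 6 and 9 against 3, 0, 3 and 4. The part of such cells in the Lama3 value was not tested. Lama4, the alpha chain of vessel walls, was not called and had an outlying number in both groups, with 58 in Cre library 3 and 74 in GFP library 3 and at most 16 elsewhere.

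The beta and gamma chains were mostly level. Lamb1, the most abundant laminin chain per exon length, had 10964 to 17014 scaled reads in Cre and 12120 to 16934 in GFP (log2 difference -0.01; adjusted p = 0.980; 0.824 with pairs, 95% interval -0.12 to 0.09). Lamb2, the beta chain enriched at the neuromuscular junction, and Lamb3 were not called (-0.05 and 0.02; paired adjusted p = 0.416 and 0.843). Lamc1, the gamma chain of most laminins, fell. It had 2833, 3334, 3368 and 4050 in Cre and 3267, 3592, 3980 and 5132 in GFP, lower with Cre in each pair though the groups overlapped. The log2 difference was -0.22 (adjusted p = 0.527; paired SE 0.05, paired adjusted p = 0.00324). Lamc3 had at most 7 scaled reads in any library.

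Divided by exon length, the make-up of the families shown was similar in both groups. Itgb1 made 80.6% of the beta subunit total in Cre and 80.9% in GFP, and Itgb4 13.4% and 14.1%. Among alpha subunits Itga7 led with 35.8% in Cre and 34.5% in GFP. It was followed by Itga6 with 23.5% and 26.5%, and Itgav made 12.8% and 15.0%. The order below Itga7 and Itga6 was not the same in the groups, since Itga3 (13.0%), Itgav and Itga5 (12.8%) lay within their spread of each other in Cre. Among laminin alpha chains Lama5 made 62.6% in Cre and 59.3% in GFP and Lama2 36.4% and 40.2%, while the share of Lama3 was 0.620% and 0.114%. Lamb1 made 62.9% and 62.7% of the beta chains. The summed level of the laminin alpha chains was 24.0 ± 6.51 in Cre and 22.8 ± 7.74 in GFP (scaled reads per kilobase per 1000000 reads, SD, n = 4).

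**Figure D4:**
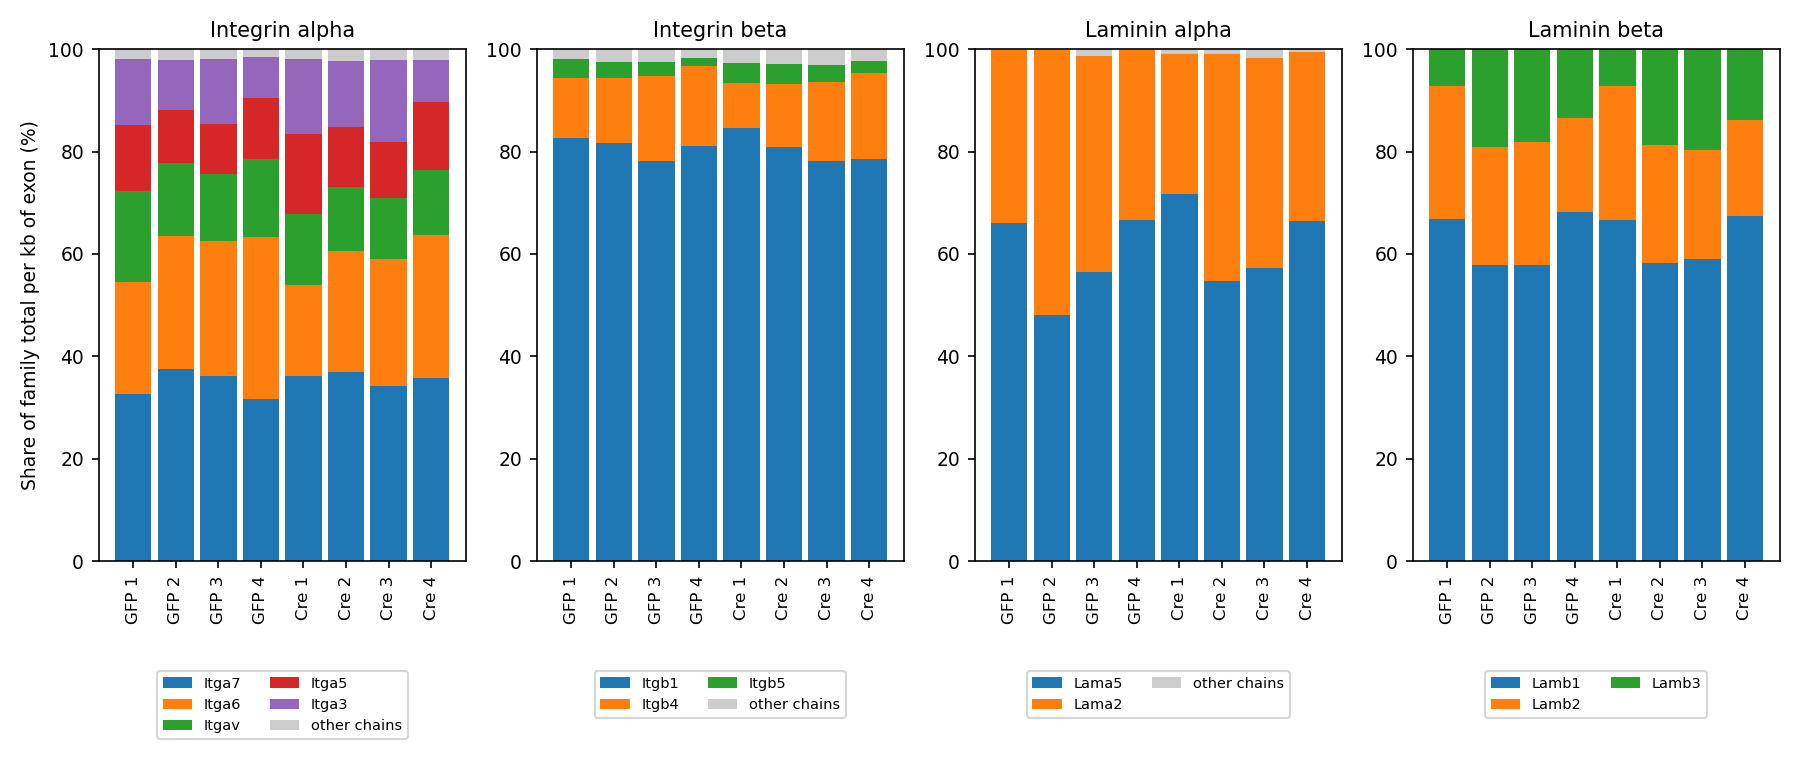
Share of each chain in its family's summed level per kilobase of exon (%), in each of the 8 libraries, for integrin alpha and beta subunits and laminin alpha and beta chains. Itgb1 dominates its family in every library, and the split between Lama5 and Lama2 shifts with the library number more than with Cre.

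Library number took a larger share of the sum of squares than Cre or GFP for most of these genes. The exceptions were Itgav (22.8% for the number, 67.6% for Cre or GFP), Itga4 (45.7% and 48.4%) and Itga2b (21.8% and 28.8%). The number has 4 levels, more than the groups, so it would on average take the larger share even without any effect. The shares of number and group are therefore not on the same scale, and each is set beside its value for all tested genes. The median share of the sum of squares that went with the number was 85.9% over the 24 tested members and 70.2% over all tested genes, and the share that went with Cre or GFP was 8.70% and 15.4%. Lamb3 was the extreme, with 99.5% for the number. It had 792, 2705, 2865 and 2324 scaled reads in Cre and 879, 2666, 2625 and 2224 in GFP. Number 1 was the lowest in both groups for 11 of the 24 members, against 23.6% of all tested genes, and these 11 included Itga6, Itga7, Itgb1, Itgb4, Lama2, Lamb3 and Lamc1. Number 4 was the highest in both groups for 8 members (23.7% of genes), among them Itga5, Itga6, Itgav, Lama2, Lama5, Lamb1 and Lamc1. Number 4 was also the lowest in both for 6 members (20.4% of genes), among them Itga2, Itga3, Itgb5, Itgb7 and Itgb8. What the number stands for is not given in the labels.

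**Figure D5:**
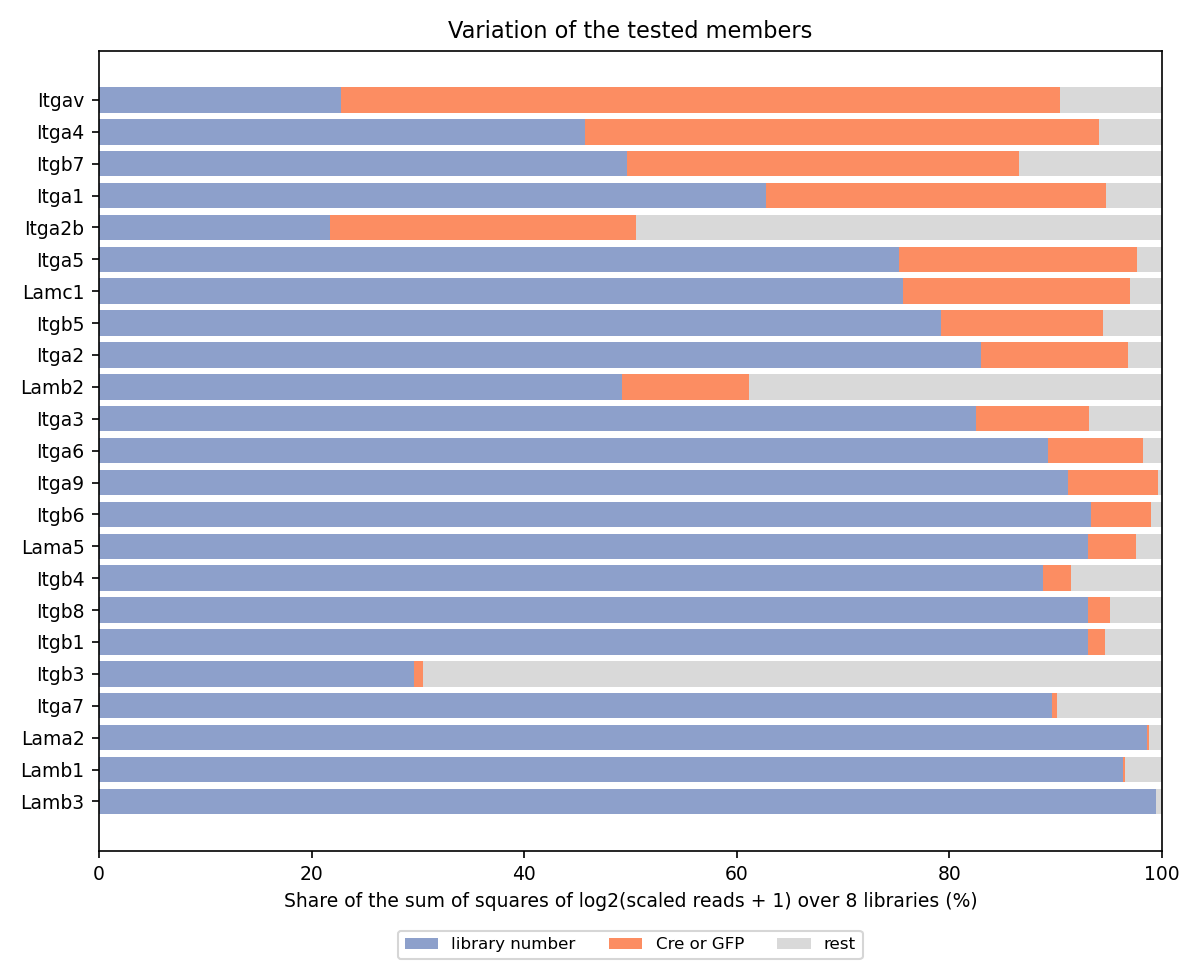
Share of the sum of squares of log2(scaled reads + 1) over the 8 libraries (%) that goes with library number, with Cre or GFP, and with neither, for 23 tested members ordered by the Cre or GFP share. Itgav is the member with the largest Cre or GFP share, and Lamb3, Lamb1 and Lama2 at the bottom have nearly none. The number has more levels than the groups, so its share would on average be the larger even without any effect.

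Other genes that act with integrins and laminins were read from 5 lists, whose members were not picked by their change. Without pairs only Icam1 was called among them, which is a ligand of Itgb2 integrins named here after its values were seen (log2 difference 2.11; adjusted p = 0.0273, lost on leaving out any 1 library). With pairs, 3 of 24 tested adhesion complex genes rose and 10 fell, with a median log2 difference of -0.05, where 22.2% of all tested genes rose and 21.7% fell. The 3 that rose are a smaller share than that background and the 10 that fell a larger one, and neither was tested. Those that fell included Tln1, the talin that links integrin tails to actin (-0.32), the guanine nucleotide exchange factor Dock1 (-0.49) and the tensin Tns3 (-0.34). Among membrane proteins that associate with integrins, 5 of 11 rose and 1 fell (median 0.12; background 22.2% and 21.7%). The tetraspanins Cd9 (0.37) and Cd82 (0.25) and the amino acid transporter heavy chain Slc3a2 (0.22) rose.

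Of the basement membrane partners of laminin, 3 of 13 rose and 4 fell (median 0.01), shares near the background of 22.2% and 21.7%. Nid1, the nidogen that bridges the laminin gamma chain Lamc1 and collagen IV, had 27478, 18231, 15810 and 24083 scaled reads in Cre and 13780, 9880, 8906 and 14364 in GFP. All Cre values were above all GFP values, and Nid1 rose by 0.86 (paired adjusted p = 1.8e-06). Agrn, the agrin that binds laminin and dystroglycan, rose by 0.47, and the fibulin Fbln1 fell by 0.25. The perlecan gene Hspg2 was level (0.01).

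In the dystroglycan complex, the other laminin receptor of muscle, 8 of 21 genes rose and 6 fell (median 0.09; background 22.2% and 21.7%). The sarcoglycan Sgcb rose by 0.33. Pomt1, which acts in the glycosylation that lets dystroglycan bind laminin, fell by 0.39. Dag1, dystroglycan itself, was not called (0.11; paired adjusted p = 0.0752). Among other integrin ligands 4 of 11 rose and 5 fell (median 0.06; background 22.2% and 21.7%). Thbs2 (0.93) and Tnc (0.55), a ligand of Itga9, rose, and Cyr61 (-0.61) and Fn1 (-0.30), the fibronectin that Itga5 binds, fell. Dag1, Fn1 and Hspg2 are named for their place in the pathway, with their values known. The genes that the naming rule chose and that are named here each kept its paired call in 10 of 10 alternatives.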

How the data were processed

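RNA from 8 libraries of adenovirus-treated muscle stem cells was sequenced with a stranded kit, per the labels. Per the submitters' processing notes, STAR 2.5.3a, featureCounts 1.5.3 and DESeq were used with mm10/GRCm38. Whether the counting used strand is not given in the sources used here, so reads of a member and of an overlapping gene on the other strand cannot be told apart. In GENCODE M21, 12 members share exon sequence with another gene. Itga4, Itgad, Itgav and Itgb4 overlap opposite-strand genes of the table, which had at most 3, 654, 7 and 22 scaled reads in a library. Itga7, Itga8, Lama2, Lama3 and Lamc3 overlap opposite-strand genes, and Itga1, Itga10 and Itgam same-strand genes, that were not analysed here, so their values are uncertain to that extent. The deposited values are a score, read counts that the authors scaled between libraries and rounded to whole numbers. They were therefore analysed on a log scale with limma 3.58.1 (trend, R 4.3.3), after adding a pseudocount of 1, and not with a count model.

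Genes at 1 scaled read per 1000000 or more in at least 4 libraries were tested. Groups and numbers come from the library titles. The main model has no block. Deviations of same-numbered libraries from their group means correlated at 0.820 to 0.908 in all 4 pairs (other pairings -0.597 to 0.477), so the numbers were taken to pair the libraries. The pairing comes from the data and the titles, as the labels do not say what a number marks. Replicates of a group differed by more than sampling noise (chi-square per degree of freedom 20.7 to 114). The libraries are described as 4 mice per condition. Unpaired p-values rest on the spread between libraries within a group. Paired p-values rest on the spread of the Cre minus GFP difference between the 4 pairs.

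Levels per length used exon unions of GENCODE M21, which held 99.8% of the gene identifiers. Ratios of sums have exact 95% intervals that cover counting error only and treat scaled reads as counts. Tests were run on simulated data in which a changed gene had the same fold change in every pair. That simulation does not show how the tests behave where pairs respond differently. The members and lists were chosen with earlier results of these data known. The members are reported, except that some genes are not reported here, and from each list the rule names the 3 genes with the smallest p in the paired fit. Alternatives were the block, voom, a pseudocount of 5, no filter, a filter of 5 per 1000000, equal totals, median ratios and leaving out each library or pair. Combinations of the block with the others were added after the data were seen. Python 3.11.15, pandas 2.3.3 and scipy 1.17.1 were used.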

Additional observations from a re-analysis of the deposited data

Results flagged for a closer look

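Each group of 4 libraries was checked for a library far from the others, in 80 groups, and chance alone marks about 5% of such groups. Lamb1 in the GFP group was marked for GFP library 4, at 16934 scaled reads when the others reached at most 12654, a gap of 0.889 of the whole range. Agrn in the GFP group was marked for the same library, at 4742 when the others reached at most 3341, a gap of 0.931 of the range. Cre library 4 was also the highest of its group for Lamb1, at 17014, and for Agrn, at 6635.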

How the results depend on the processing

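The block set most counts. Genes called, 140 without it, were 5665 with it, 85 with a filter of 5 per 1000000, 11 to 58 without any 1 library, and 4338 to 5013 with the replicate block and without any 1 pair (4593 without pair 2, 4861 without pair 3). Members higher, of 24 tested, were 0 without the block (0.837% of all tested genes) and 9 with the replicate block (22.2%). They were 7 to 9 with it and without a pair (17.3% to 20.5%), and 3 of 36 with no filter (0.582%). Members lower were 0 without the block (0.248% of all tested genes), 4 with the replicate block (21.7%) and 4 with it and without any 1 pair (16.3% to 18.4%). Called genes with the replicate block, and the range without a pair, were 13 of 24 (9 to 13, 10 without pair 2) in the adhesion complex. They were 6 of 11 (4 to 7) among membrane partners and 7 of 13 (4 to 7) among basement membrane partners. In the dystroglycan complex they were 14 of 21 (12 to 15), and among other ligands 9 of 11 (8 to 11). Of all tested genes, 43.9% were called in either direction with the block, and 33.6% to 38.8% without a pair. The basement membrane count of 4 came without pair 3. Without the block the other ligands gave 1, which became 0 with a filter of 5 per 1000000 and 0 without any 1 library.

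Among values that answer a comparison, 181 stayed alike and 60 moved. For single genes 1028 values kept their direction and side of the threshold, 130 crossed the threshold upward and 26 lost the call. A further 51 values, from 14 genes, changed sign, and 0 of them passed the threshold. The cause was not tested. Without the block, log2 differences without any 1 library ran from -0.078 to 0.098 for Itga7, -0.065 to 0.026 for Itgb1, -0.075 to 0.044 for Itgb3, -0.26 to 0.13 for Itgb4, -0.037 to 0.71 for Itgb6, -0.12 to 0.33 for Itgb8, -0.21 to 0.18 for Lama2, -0.017 to 0.47 for Lama5, -0.14 to 0.10 for Lamb1 and -0.36 to 0.45 for Lamb3. With the replicate block they were -0.00070 and -0.019 for Itga7 without pairs 1 and 4, 0.033 and 0.061 for Itgb3 without pairs 2 and 3, 0.0058 for Lama2 and 0.031 for Lamb1 without pair 1, and -0.022 and -0.0010 for Lamb3 without pairs 3 and 4. Equal totals gave -0.00014 for Itga7 and -0.0061 for Lamb3, and median ratios 0.00015 for Lamb1, each with and without the block. With no filter, sign changes were -0.017 for Lamc3 without GFP library 4, -0.0098 for Itga8 without GFP library 1, 0.21 for Itga11 without Cre library 1, and for Lama4 -0.29 without Cre library 3, -0.16 without GFP library 1 and -0.0065 with voom and the block. With equal totals the paired split was 2607 higher and 3157 lower, against 2861 and 2804. Of the 13 members called with pairs, the alternatives ended the calls on Itga1, Itga3, Itga5 and Lama5. At 0 to 19 scaled reads, as for Itgb2, Lama1 and Itgal in GFP, sampling noise limits the precision of any ratio, and 0 reads in a library do not show absence.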

Other observations

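Nephronectin (Npnt), a ligand of Itga8, stood at 202 ± 36.4 scaled reads per kilobase per 1000000 reads in GFP and 212 ± 58.8 in Cre (SD, n = 4), whereas Itga8 stood at 0.0313 ± 0.0150 and 0.0355 ± 0.00807, so the ligand was abundant where this receptor subunit was barely read. Osteopontin (Spp1), a ligand of Itgav, Itga4 and Itga9 integrins, stood at 7278 ± 1905 in GFP and 8240 ± 1021 in Cre. Neither ligand was called in the paired limma fit (adjusted p = 0.533 for Npnt and 0.0880 for Spp1).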
